A study of Mus musculus with 12 samples.

Results

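The mRNA levels of 9 interferon-stimulated genes, *Irf7*, *Isg15*, *Ifit1*, *Ifit2*, *Ifit3*, *Usp18*, *Oasl2*, *Rtp4* and *Irgm1*, were followed through the day in mouse liver. The members were chosen by name, with earlier results of these data known, as were the gene lists used below. Of the 20069 genes with a signal 9 carry these names. *Irgm1* was found under its older symbol *Irgm*. The livers came from adult male C57BL/6 mice of 3 to 6 months, all without a mutation or an agent, kept for at least 2 weeks in cycles of 12 hr light and 12 hr dark (LD). Zeitgeber time (ZT) counts the hours from lights on, and poly(A) RNA was sequenced at 6 time points, each 4 hr after the last, from ZT2 to ZT22. Each time point was sampled in 2 series, called series 1 and series 2, so that there were 12 samples and 2 per time point. The question asked of these genes was how their spread between the series compares with their spread across the day.

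Interferons are secreted cytokines that warn cells of infection. Type I interferon binds a receptor built from *Ifnar1* and *Ifnar2*, the kinases *Jak1* and *Tyk2* pass the signal on, and a complex that contains *Irf9* binds interferon-stimulated response elements in promoters. The genes switched on in this way encode factors that sense, block or degrade viral RNA and factors that restrain the signal, and many are expressed at a low level in healthy liver, in hepatocytes as well as in resident macrophages (Kupffer cells).

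The response element was searched for in the promoters because it is what most of these genes are known to share. The letters GAAA, any 2 bases and GAAA again (TTTC, any 2 bases and TTTC on the other strand) were looked for on both strands, with overlapping matches allowed, in the 250 bases before each RefSeq gene start (GRCm38.p6). Promoters of 7 members were matched, and 4 of these 7 held the letters, against 3.46% of the 27025 genes in the table. The promoters of *Usp18* and *Rtp4* were not matched. The stretches that hold the letters are given 5′ to 3′ on the strand of the gene, with each match in capitals and with the place at which the stretch was found in mm9:
*Ifit1*, chr19:34715268-34715310, plus strand: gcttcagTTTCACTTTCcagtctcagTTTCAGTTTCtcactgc
*Ifit3*, chr19:34657856-34657913, plus strand: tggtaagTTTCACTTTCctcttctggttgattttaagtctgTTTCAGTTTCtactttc
*Isg15*, chr4:155574977-155575012, minus strand: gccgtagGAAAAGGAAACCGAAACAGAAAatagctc
*Irgm1*, chr11:48684930-48684959, minus strand: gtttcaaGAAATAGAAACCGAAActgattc

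*Ifit1* and *Ifit3* each held 2 separate matches, the last of which ended 75 and 112 bases before the gene start. The matches overlapped one another in *Isg15*, which held 3, and in *Irgm1*, which held 2 and in which the stretch falls in an exon of another transcript in the mm9 annotation. No match was found in the windows of *Irf7*, *Ifit2* and *Oasl2*, which says only that these letters are not in those windows.

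The signal is the coverage of a gene's exons in reads per base pair (rpbp), scaled to the same number of uniquely mapped sequences in every sample, so that levels can be compared between genes per base of exon. A gene was taken as expressed when at least 1 of the 12 values was above 8 rpbp, which 10198 genes and 8 of the 9 members passed. The summed signal of the expressed genes lay between 1474234 and 1532429 rpbp per sample, and 6 hepatocyte markers were abundant in every sample. Of these *Alb* was 51786 rpbp at ZT2 and between 96080 and 114473 rpbp in the other time point means, 3 more (*Ttr*, *Cps1* and *Tat*) also had their lowest mean at ZT2, and *Apoa1* and *Serpina1a* had their highest there. All 6 clock genes examined (*Arntl*, *Dbp*, *Nr1d1*, *Per2*, *Cry1* and *Npas2*) were called rhythmic by the rule given for the members. Of the 12 samples 3 stood apart in genes of the acute phase response, the liver's reaction to inflammation. The 7 genes of that list summed to 57496 and 54276 rpbp in the ZT2 samples and 33306 rpbp in ZT22 series 2, and to between 7953 and 11462 rpbp in the other 9. The tests of time point and of rhythm and the main measures are therefore also given without the ZT2 samples. The counts of calls in these tests are also given without all 3.

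*Irf7* encodes the transcription factor that amplifies type I interferon production (mm9 chr7:148448605-148452380, minus strand, 7 exons after flattening of the isoforms). From ZT2 to ZT22, its level was 66.9, 43.2, 100.4, 42.7, 36.4 and 44.6 rpbp in series 1 and 82.0, 55.8, 50.5, 29.9, 32.7 and 50.4 rpbp in series 2. Its highest value was at ZT10 of series 1, which was 1.99 times its partner in series 2. In both series the lowest 2 values were those at ZT14 and ZT18. The means at ZT10 (75.5 ± 35.3 rpbp; SD, n = 2) and ZT2 (74.5 ± 10.7 rpbp) did not differ beyond their spread, and both ZT2 samples were above both ZT6 samples. Of its exon bases, 1.49% are shared with *Phrf1* on the other strand, which a count without strand cannot separate.

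**Figure D1:**
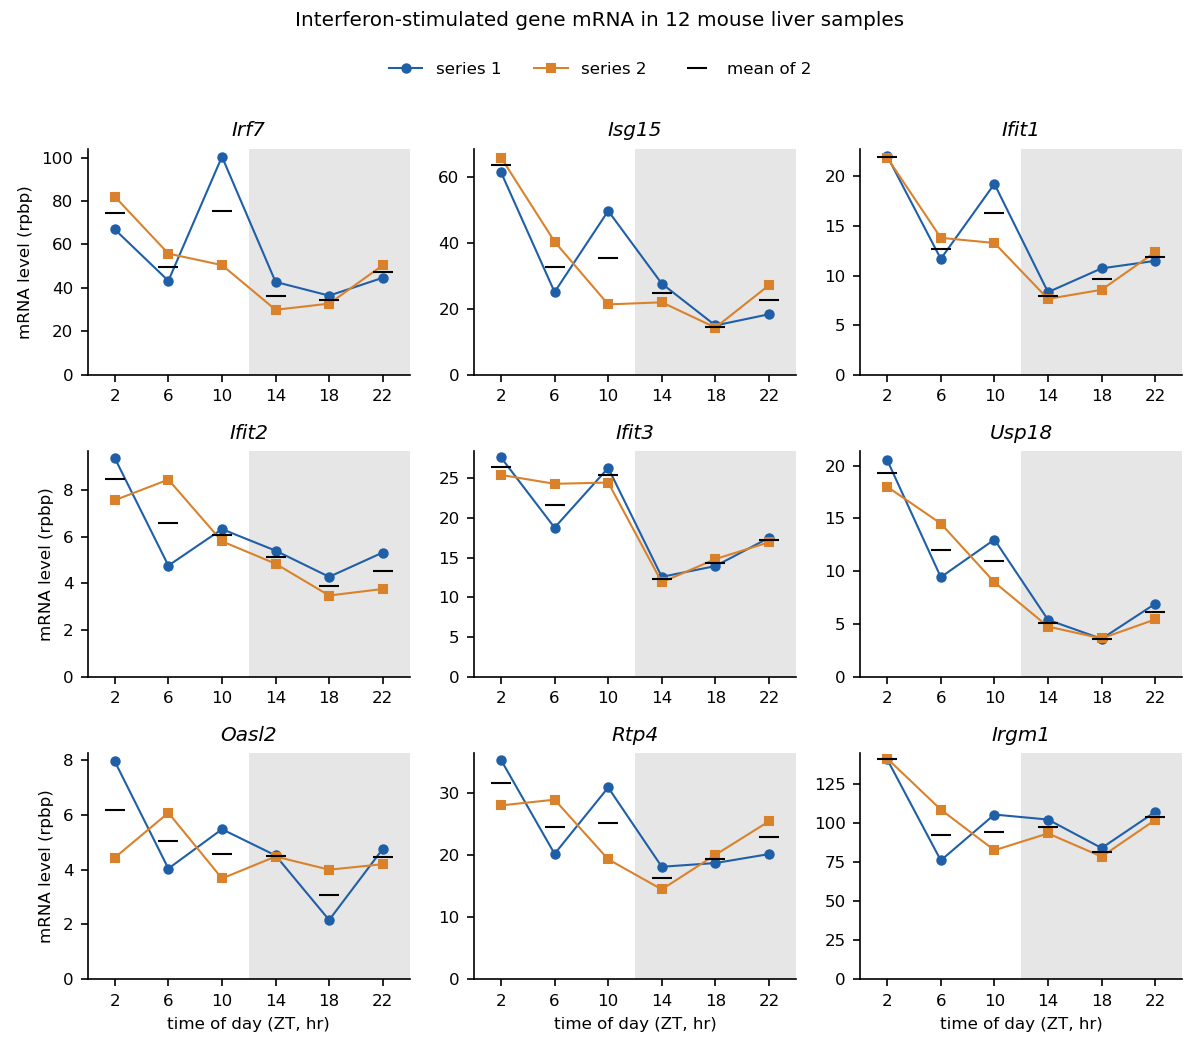
mRNA level (rpbp, linear axis from 0) of each gene against time of day (ZT, hr). Circles are series 1, squares are series 2, short bars are the mean of the 2 samples, and grey marks the dark phase. *Ifit3* and *Usp18* are the genes in which all 6 light values lie above all 6 dark values, and *Irf7* and *Isg15* show the wide gap between the series at ZT10.

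*Isg15* and *Usp18* act on the same protein tag. *Isg15* encodes a ubiquitin-like protein that is attached to other proteins (chr4:155573533-155574927, minus strand, 2 exons), and *Usp18* encodes the protease that removes it and that also restrains the interferon receptor (chr6:121195924-121220934, plus strand, 11 exons). *Isg15* mRNA was 61.6, 25.1, 49.8, 27.7, 14.96 and 18.4 rpbp in series 1, and 66.0, 40.4, 21.4, 22, 14.3 and 27.2 rpbp in series 2. Both ZT2 values were above the other 10, the mean at ZT2 was 4.36 times the mean at ZT18, and at ZT10 series 1 was 2.33 times series 2. For *Usp18* the levels were 20.5, 9.44, 13.0, 5.40, 3.6 and 6.92 rpbp in series 1 and 18, 14.5, 8.96, 4.76, 3.64 and 5.44 rpbp in series 2. The ratio of the ZT2 mean (19.3 ± 1.78 rpbp; SD, n = 2) to the ZT18 mean (3.62 ± 0.0283 rpbp) was 5.32, the widest of the 9 members, and every light value was above every dark value.

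The 3 *Ifit* genes lie in 1 cluster on chromosome 19 and encode proteins that bind foreign RNA and block its translation. *Ifit1* (chr19:34715361-34724499, plus strand, 2 exons) measured 22.04, 11.7, 19.2, 8.32, 10.7 and 11.5 rpbp in series 1 and 21.9, 13.8, 13.3, 7.64, 8.56 and 12.4 rpbp in series 2. Its ZT2 values were the highest in both series and its ZT14 values the lowest. *Ifit2* (chr19:34625184-34650909, plus strand, 4 exons) was the lowest of the 3, at 9.36, 4.76, 6.32, 5.40, 4.28 and 5.32 rpbp in series 1 and 7.56, 8.44, 5.80, 4.84, 3.48 and 3.76 rpbp in series 2. It passed the minimum of 8 rpbp only through ZT2 of series 1 and ZT6 of series 2, and 4 of the 5 steps between neighbouring time point means overlapped. *Ifit3* (chr19:34658021-34663221, plus strand, 2 exons) was the steadiest between the series, at 27.6, 18.8, 26.3, 12.6, 13.96 and 17.5 rpbp in series 1 and 25.4, 24.3, 24.5, 11.9, 14.8 and 17.0 rpbp in series 2. Its lowest light value was thus above its highest dark value, and the ZT2 (26.5 ± 1.56 rpbp; SD, n = 2) and ZT10 (25.4 ± 1.30 rpbp) means did not differ beyond their spread. Of the 50-base stretches of the *Ifit3* transcript, 51.5% also occur in a transcript of its near copy *I830012O16Rik*. Of those of *Ifit1*, 7.13% occur in another gene. Only uniquely mapped sequences were kept, so that reads wholly within such stretches may be lost. The levels of *Ifit3* and *Ifit1* may then be understated beside those of other genes. None of the 50-base stretches of the other 7 members was found in transcripts of another gene.

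*Oasl2*, *Rtp4* and *Irgm1* complete the set. *Oasl2* encodes a relative of the oligoadenylate synthetases that sense double-stranded RNA (chr5:115346943-115362243, plus strand, 7 exons), and it reached at most 7.96 rpbp, under the minimum, so that it was tested only in the alternative with no minimum. There it was not called, with a permutation p of 0.181 for the 24 hr wave and a limma adjusted p of 0.55 across the time points. Its values were 7.96, 4.04, 5.48, 4.52, 2.16 and 4.76 rpbp in series 1 and 4.44, 6.08, 3.68, 4.48, 4.00 and 4.20 rpbp in series 2. It was the member in which the SD between the series (30.1% of the mean) was larger than the SD among the time points (21.7%). *Rtp4*, a chaperone of receptors that is induced by interferon (chr16:23610005-23614308, plus strand, 2 exons), measured 35.3, 20.2, 30.8, 18.1, 18.7 and 20.1 rpbp in series 1, and 28.0, 28.9, 19.3, 14.4, 20.0 and 25.4 rpbp in series 2. In the order of its time point means neighbours overlapped, except that both ZT22 samples were above both ZT18 samples, and these above both ZT14 samples. *Irgm1*, a GTPase that acts against bacteria within cells (chr11:48675470-48685185, minus strand, 4 exons), was the most abundant member per base of exon. Its levels were 140.6, 76.0, 105, 102, 83.8 and 107 rpbp in series 1 and 141, 108, 82.4, 93.2, 78.4 and 102 rpbp in series 2. The ZT2 pair stood above the other 10 samples and the remaining 5 time points overlapped from each to the next, with a ratio of the highest to the lowest time point mean of 1.74.

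Most members were highest in the morning. Of all 9 members, whether or not they passed the minimum, 8 had their highest time point mean at ZT2, where 29.2% of all expressed genes had theirs, and *Irf7* was the exception. Both ZT2 samples were above the other 10 in 4 members (*Isg15*, *Ifit1*, *Usp18* and *Irgm1*), against 10.4% of all expressed genes. The mean of the light samples was above the mean of the dark samples in 9 of 9, against 57.1% of all expressed genes. Without ZT2 it was above in 8 of 9, against 52.4% of all expressed genes, and *Irgm1* (93.0 rpbp in the light and 94.4 rpbp in the dark) was the exception. All light values were above all dark values in *Ifit3* and *Usp18*, and in 0.677% of all expressed genes. *Ifit2* and *Usp18* had values above the minimum in light samples only, so that they entered the set of expressed genes through the light. *Oasl2* did not pass the minimum and is not among the expressed genes. None of them is support for a count in this paragraph, of ZT2, of light against dark or of the lowest mean, set against the expressed genes. The lowest mean was at ZT18 or ZT14 in each of the 9 members, and in 32.8% of all expressed genes. These counts share the same 12 samples, so that the members are not independent of one another.

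Differences among the 6 time points were tested for all expressed genes with limma on log2(rpbp + 1), and p-values were adjusted by the Benjamini-Hochberg method over the 10198 genes. Of the 8 members 4 passed an adjusted p of 0.05, and 20.4% of all genes did. *Usp18* is among them and had values above the minimum in light samples only. No count in this paragraph that holds it is read against the share of all genes. The calls were *Usp18* (adjusted p = 0.00192), *Ifit3* (adjusted p = 0.00198), *Ifit1* (adjusted p = 0.00592) and *Isg15* (adjusted p = 0.0291). *Irgm1* (adjusted p = 0.0567), *Irf7* (0.0625), *Rtp4* (0.133) and *Ifit2* (0.138) did not pass. With series as a term the same 4 passed, against 16.7% of all genes. Of the calls, that of *Isg15* was lost with no minimum (adjusted p = 0.0695). Leaving out 1 sample gives its time point a lone sample, so that the difference of that pair drops out of the error. Calls gained or lost in this way are therefore not read for single members. The fit without the 3 samples with the highest acute phase signal has the same limit at ZT22. Without the ZT2 samples 2 members passed, *Ifit3* (adjusted p = 0.0153) and *Usp18* (adjusted p = 0.0313), against 6.15% of all genes. Without the 3 samples with the highest acute phase signal 1 member passed, *Ifit3* (adjusted p = 0.0388), against 2.88% of all genes.

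The spread of each gene was then divided between the time points, the series and a remainder, which holds the differences between the 2 samples of a time point that are not shared by a whole series. As shares of the sum of squares of log2(rpbp + 1), the members' medians were 79.3% for time point, 0.567% for series and 20.6% for the remainder. Over all expressed genes the medians were 69.2%, 2.46% and 25.2%. Time took the most in *Ifit3* (95.7%), *Usp18* (94.6%) and *Ifit1* (91.9%), and the least in *Rtp4* (66.5%), *Ifit2* (73.3%) and *Irf7* (74.3%). Time point has more degrees of freedom than series, so that their shares are not on an equal footing. Per degree of freedom, the spread across time was between 7.83 (*Irf7*) and 411 (*Ifit3*) times that between the series. Against the remainder it was 22.5 times in *Ifit3*, 18.8 times in *Usp18* and 13.3 times in *Ifit1*, and 2.03 times in *Rtp4*. The median time share was 62.7% without ZT2 and between 68.7% and 92.7% when 1 sample was left out, and the highest value was reached without ZT6 of series 1. The series share was 3.73% and 3.55% without ZT6 of series 1 or series 2, and between 0.217% and 0.644% without any other single sample. The remainder fell to 4.55% and 4.18% without the ZT6 samples and to 10.5% and 7.47% without the ZT10 samples of series 1 and series 2. A time point left with 1 sample is fitted exactly. The difference of its pair then drops out of the remainder by construction, whichever sample is left out, and these ranges hold that effect.

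**Figure D2:**
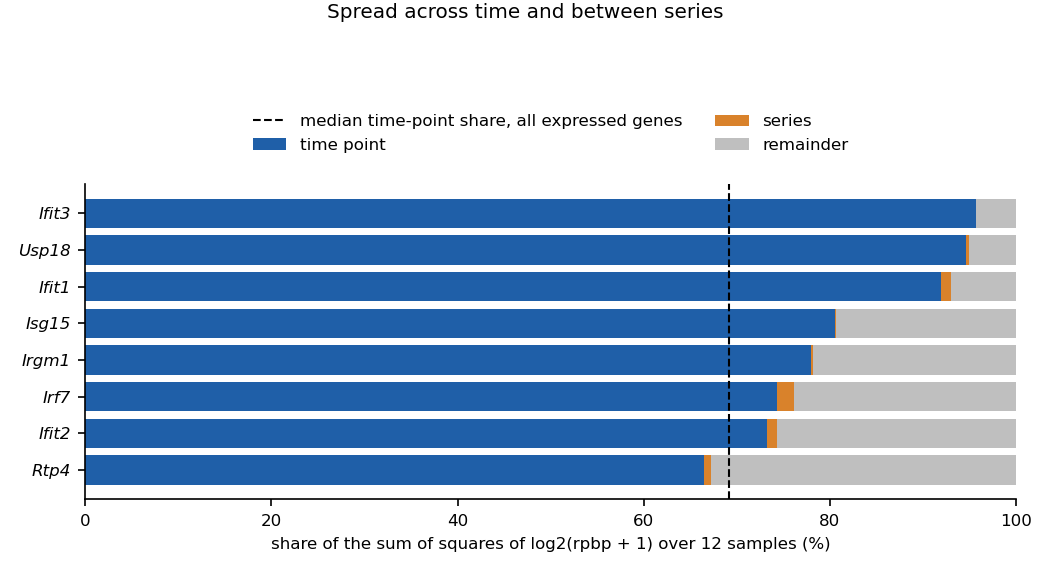
Share (%) of the sum of squares of log2(rpbp + 1) over 12 samples that falls to time point, series and remainder in the 8 expressed members. The dashed line is the median time share of all expressed genes, 69.2%. The series share is at most 1.90% (*Irf7*), and the time share of *Rtp4* (66.5%) lies left of the line.

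In these genes both kinds of spread were wide. The median SD between the 2 samples of a time point was 21.7% of the mean in the members and 10.8% in all expressed genes, and the median SD among time point means was 32.0% and 12.5%. The ratio of the spread among time points to the spread within pairs was 3.20 in *Ifit3*, 2.82 in *Usp18* and 2.58 in *Ifit1*, and 1.05 in *Rtp4* and 1.12 in *Irf7*. It sets an SD of means of 2 samples against an SD of single samples. Without a time effect a ratio below 1 is therefore expected, and 1 is not the line of no effect. Without ZT2 the ratio was 2.83 in *Ifit3* and 1.48 in *Ifit1*, between these in *Usp18*, and below 1 in the other 6 members, *Oasl2* included (0.652 in *Irgm1* to 0.967 in *Irf7*).

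No member passed a test of the difference between the series as a whole. With time point and series in 1 limma fit, series 2 minus series 1 was between -0.13 (*Irf7*, SE 0.169) and 0.02 (*Ifit3*, SE 0.0749) on the log2 scale. Of the 8 members 0 passed an adjusted p of 0.05 and 0 had an unadjusted p under 0.05. Of all genes 0 passed with adjustment, and 4.1% had an unadjusted p under 0.05. The means of the series were 55.7 and 50.2 rpbp for *Irf7* and 19.5 and 19.7 rpbp for *Ifit3*, each over 6 samples. A 24 hr component that differs between the series, tested by limma as an interaction, was called in 0 of 8 members (0 also with unadjusted p, against 1.73% of all genes).

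Although no member passed that test, the 2 samples of a time point differed in the same direction across members. At ZT6 series 2 was higher in 8 of 8 expressed members, by a median of 0.50 on the log2 scale and by 0.22 to 0.71. At ZT10 it was lower in 8 of 8, with a median difference of -0.50 and a range from -1.18 to -0.10. At ZT14 series 2 was again lower in 8 of 8, with a median difference of -0.14. The other 3 time points held members of both directions. Of all expressed genes 58.7% were higher in series 2 at ZT6, and 46.6% and 63.5% were lower in it at ZT10 and ZT14, with median differences of 0.04, 0.02 and -0.08. At ZT6 the 48 other interferon-stimulated genes were higher in series 2 in 39, at ZT10 lower in 39 and at ZT14 lower in 47. Each of these is a contrast of 1 sample with 1 sample, so that it has no replicate and no test. Over the 6 time points the series differences of 2 members had a median Pearson r of 0.76 (28 pairs of members, 0.24 to 0.95), against 0.04 for pairs of all genes.

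**Figure D3:**
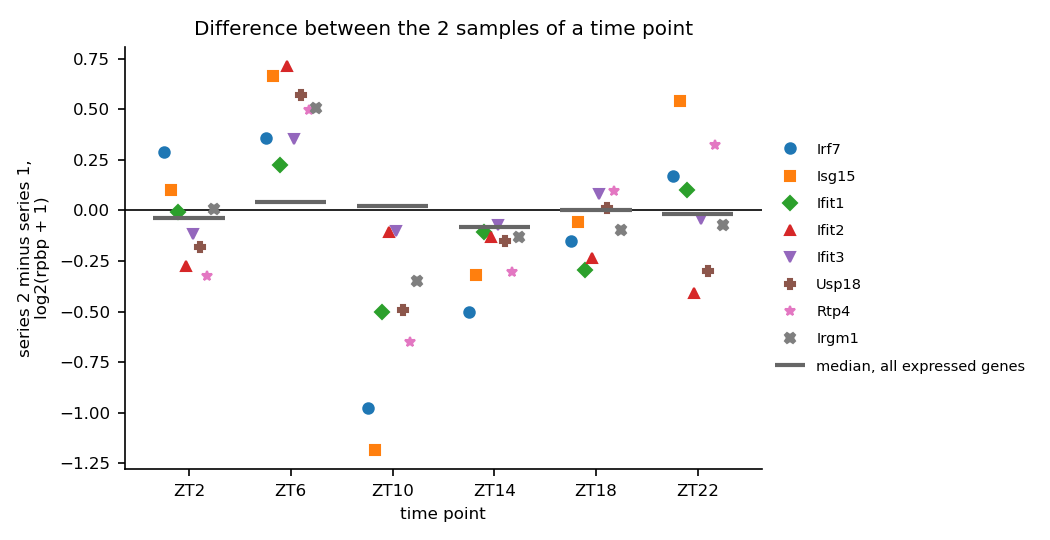
Difference between series 2 and series 1 in log2(rpbp + 1) at each time point, 1 symbol per expressed member. Grey bars are the medians of all expressed genes, between -0.08 and 0.04. The 8 members lie above 0 at ZT6 and below 0 at ZT10 and ZT14.

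The share of a gene's variance that follows a 24 hr wave (F24) was computed from the 12 values, and its permutation p came from 10000 orders of the values. A gene was called rhythmic with p under 0.05, F24 above 0.45 and a highest to lowest value above 1.5. Of the 8 expressed members 5 were called, against 19.1% of all expressed genes. These were *Usp18* (F24 0.706, permutation p = 0.0041), *Ifit3* (F24 0.669, permutation p = 0.0129), *Ifit1* (F24 0.527, permutation p = 0.0335), *Ifit2* (F24 0.519, permutation p = 0.0376) and *Rtp4* (F24 0.501, permutation p = 0.0473). The fitted peaks of the 5 lay between 3.41 hr and 4.93 hr after lights on, and 4.08% of all genes were rhythmic with a peak between 1 and 6 hr. *Ifit2* and *Usp18* entered this test only through light samples, in which they were high, so that the count of 5 is not read against the share of all genes. The other 3 calls do not depend on the minimum in this way. *Isg15* (F24 0.466, permutation p = 0.0628), *Irgm1* (F24 0.380, permutation p = 0.121) and *Irf7* (F24 0.331, permutation p = 0.16) were not called. With F24 computed on log2(rpbp + 1), *Isg15* was called as well (permutation p = 0.0445), so that 6 members were called. Over all genes 1964 were called in that setting.

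After adjustment over all genes 0 of the 8 permutation p-values passed (4.81% of all genes were called), and the lowest was that of *Usp18* (adjusted p = 0.0588). With the limma test of a 24 hr wave and its adjusted p, 2 members were called, *Ifit3* and *Usp18*, against 8.58% of all genes. Without ZT2 the same 2 genes were called, with F24 of 0.611 (permutation p = 0.048) and 0.809 (permutation p = 0.0033), against 15.1% of all genes. Without the 3 samples with the highest acute phase signal *Usp18* alone was called (F24 0.805, permutation p = 0.0095), against 12.6% of all genes. As *Usp18* entered the tested genes through light samples only, none of these counts that hold it is read against the share of all genes. F24 of *Irgm1* was 0.380 with ZT2 and 0.0383 without it. Single samples also decided calls. Leaving out 1 sample gave between 2 and 7 members called, where all genes gave between 1603 and 2009. The 2 calls were reached without either ZT2 sample, either ZT18 sample, ZT10 of series 2 or ZT14 of series 2, and the 7 calls without ZT6 of series 1. The call of *Irf7* was gained without ZT10 of series 1 (permutation p = 0.0114), that of *Irgm1* without ZT6 of series 1 (permutation p = 0.0104) and that of *Isg15* without either of these 2 samples (permutation p = 0.037 and 0.0188). The call of *Ifit1* was lost when any 1 of 8 samples was left out, that of *Ifit2* for any 1 of 9 and that of *Rtp4* for any 1 of 10. *Rtp4* was also not called after scaling by size factors (permutation p = 0.0598). *Ifit3* and *Usp18* were under a permutation p of 0.05 whichever single sample was left out (highest 0.0285 and 0.0157).

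**Figure D4:**
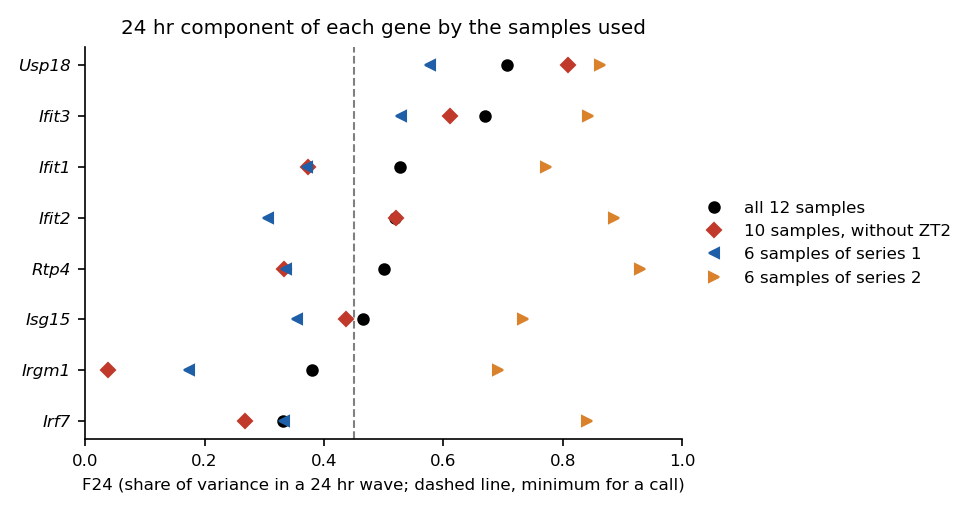
F24 of each expressed member, computed from all 12 samples, from the 10 without ZT2 and from the 6 samples of each series. The dashed line is the minimum for a call, 0.45. *Usp18* and *Ifit3* lie right of it in all 4, and *Irgm1* falls to 0.0383 without ZT2.

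In all 8 expressed members F24 was higher in series 2 alone than in series 1 alone, as it was in 59.7% of all expressed genes, in 42 of the 48 other interferon-stimulated genes and in 9 of 9 macrophage markers. It was between 0.692 (*Irgm1*) and 0.930 (*Rtp4*) in series 2, and between 0.174 (*Irgm1*) and 0.577 (*Usp18*) in series 1. With the exact permutation p over the 720 orders of 6 values, 1 member was called in series 2 (*Irf7*, exact p = 0.0333), against 3.62% of all genes, and 0 were called in series 1, against 2.8% of all genes. With 6 values many orders give the same F24, so that this exact p is coarse and few genes can pass. These counts are too small to be read against the background. The 2 series were not shown to differ, since the interaction test called 0 genes with adjusted p and 1.73% of genes without adjustment.

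The members' levels followed one another across the samples. Over the 12 samples the 28 pairs of expressed members had a median Pearson r of 0.82 on log2(rpbp + 1), between 0.52 (*Ifit3* with *Irgm1*) and 0.92 (*Ifit1* with *Ifit3*), and a median Spearman rho of 0.77. Pairs of all expressed genes had a median r of 0.02. Without ZT2, which holds the 2 samples farthest from the median, the members' median r was 0.69, with a range from 0.18 to 0.92. To the mean of the other members the closest was *Usp18* (r = 0.94) and the least close *Irgm1* (r = 0.75). The values of a pair share their 12 libraries, and these coefficients are a description.

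Outside the set, the 10 genes most like the mean of the members over the 12 samples (Pearson r of the z-scores) were *Trim30* (0.95), *Ifi27* (0.94), *Snapc5* (0.93), *Taf9* (0.93), *Iigp1* (0.92), *2310011J03Rik* (0.91), *Trim34* (0.90), *AK040197* (0.90), *Ifih1* (0.90) and *Ms4a6c* (0.90). Without ZT2 these r were between 0.80 (*Ms4a6c*) and 0.91 (*Trim30* and *Snapc5*). *Trim30*, *Ifi27*, *Iigp1* and *Ifih1*, a sensor of double-stranded RNA, stand on the list of other interferon-stimulated genes. *Snapc5* and *Taf9*, which encode parts of the general transcription machinery, do not. *Trim30* measured 11.6 ± 0.735 rpbp at ZT2 (SD, n = 2) and 5.78 ± 0.424 rpbp at ZT14.

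The rest of the pathway was taken from lists. Of 65 other interferon-stimulated genes 59 were matched and 48 were expressed. The rhythm rule called 22 of these 48 (45.8%, against 19.1% of all genes), of which 20 peaked between 1 and 6 hr, and limma called 18 across the time points (20.4% of all genes). Of these, 3 of the rhythmic genes and 2 of those called across time points passed the minimum through light samples only, and the other 19 and 16 did not. Without ZT2 the rhythm rule called 8 (16.7%, against 15.1% of all genes) and limma 1 (2.08%, against 6.15%), which is near or below the background. Without the 3 samples with the highest acute phase signal they called 9 (18.8%, against 12.6%) and 0 (against 2.88%). The 6 called across time points with the widest ratio of time point means were *Zbp1* (5.32), *Ifi47* (5.29), *Rsad2* (2.86), *Dhx58* (2.78), *Cmpk2* (2.63, under its older symbol *Tyki*) and *Rnf213* (2.37). All 6 were highest at ZT2, where 29.2% of all expressed genes had their highest mean. Among them *Rsad2* passed the minimum through light samples only, so that its place here is no support for a height at ZT2. With series as a term limma called 10 of the 48 (20.8%, against 16.7% of all genes), and *Rsad2* was no longer among them (adjusted p = 0.0547). *Zbp1*, a sensor of nucleic acids, measured 19.0 ± 0.735 rpbp at ZT2 and 3.58 ± 0.481 rpbp at ZT18 (SD, n = 2; adjusted p = 0.0201). *Ifi47*, a GTPase related to *Irgm1*, measured 134 ± 19.9 rpbp at ZT2 and 25.4 ± 8.37 rpbp at ZT10 (adjusted p = 0.00798). Median spread shares of the 48 were 75.3% for time point, 1.30% for series and 21.9% for the remainder.

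Of 26 genes for interferon receptors and signalling 25 were matched and 19 expressed, and 4 of the 19 were called rhythmic (21.1%, near the background of 19.1%) and 3 across the time points (15.8%, against 20.4%). Those called across time points were the kinase *Ikbke* (28.4 ± 6.42 rpbp at ZT2 and 8.68 ± 0.905 rpbp at ZT18; SD, n = 2; adjusted p = 0.00767), *Irf3* (50.6 ± 0.707 rpbp at ZT2 and 35.0 ± 0.735 rpbp at ZT10; adjusted p = 0.032) and *Irf2* (53.1 ± 3.96 rpbp at ZT10 and 37.3 ± 2.88 rpbp at ZT22; adjusted p = 0.0354). With series as a term *Irf3* was not called (adjusted p = 0.0501). Among the rhythmic ones, named here after their values were seen, were *Irf2*, *Irf9* (older symbol *Isgf3g*) and *Ifngr2*. *Ifnar1*, the receptor chain, lay between 30.0 and 35.8 rpbp in the time point means. Without ZT2 limma called 0 of these 19 (against 6.15% of all genes) and the rhythm rule 1 (5.26%, against 15.1%). Of the 11 interferon genes themselves 4 were matched, none passed the minimum, and the highest value in any sample was 1.36 rpbp.

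Markers of other cells moved with the members in part. Since the samples are bulk tissue, more cells of a type and more RNA per cell cannot be told apart. The 10 matched markers of Kupffer cells and macrophages summed to 1003 and 1032 rpbp at ZT2 and to between 531 and 798 rpbp in the other 10 samples. Of the 9 expressed ones 8 had both ZT2 samples above the others, against 10.4% of all expressed genes. Of these 9 limma called 0 across the time points (against 20.4% of all genes) and the rhythm rule 1 (*Cd5l*; against 19.1%). In series 2 alone the rhythm rule called 5 of them (55.6%, against 3.62% of all genes), and in series 1 alone 0. *Clec4f*, which defines Kupffer cells, was 198 ± 1.73 rpbp at ZT2 (SD, n = 2) and between 124 and 139 rpbp in the other time point means. At ZT6 the sum of the 10 markers was 543 rpbp in series 1 and 783 rpbp in series 2, at ZT10 650 and 624 rpbp, and at ZT14 771 and 538 rpbp. The 9 summed members were 213 and 301 rpbp at ZT6, 357 and 230 rpbp at ZT10, and 227 and 193 rpbp at ZT14. As median differences on the log2 scale, the 9 expressed markers and the 8 expressed members were alike at ZT6 (0.50 and 0.50) and unlike at ZT10 (-0.02 and -0.50). At ZT14 all 9 markers and all 8 members were lower in series 2, as were 63.5% of all expressed genes. At ZT18 all 9 markers were higher in series 2 (531 and 682 rpbp summed), where 5 of 8 members were higher in series 1 (189 and 180 rpbp summed). Of all expressed genes 49.5% were higher in series 2 at ZT18. At ZT22 all 9 markers were higher in series 2, and 4 of 8 members were, against 46.5% of all expressed genes.

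The acute phase genes and the members differed in which samples were high. Both were high at ZT2. In ZT22 series 2 the acute phase genes summed to 33306 rpbp, against 11338 rpbp in series 1, and the members to 248 and 236 rpbp. In ZT10 series 1, where the members summed to 357 rpbp, the acute phase genes were at their lowest sum, 7953 rpbp. All 13 markers of lymphocytes and NK cells were under the minimum, with 5.4 rpbp as the highest value. Of 6 plasmacytoid dendritic cell markers 2 passed it, *Tcf4* and *Ly6d*, and the 6 summed to 8.44 and 8.8 rpbp at ZT2 and to between 6.36 and 15.1 rpbp elsewhere, while *Siglech* averaged at most 0.9 rpbp. Of 6 neutrophil markers 2 passed it, and the 6 summed to 17.4 and 23 rpbp at ZT2, 23.5 rpbp in ZT22 series 2 and 3.48 to 14.1 rpbp in the rest, with *Mpo* at most 0.14 rpbp in any time point mean. The 7 liver endothelial markers summed to between 202 and 242 rpbp in all samples. The part of any of these cells, or of the acute phase response, in the members' levels was not tested.

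**Figure D5:**
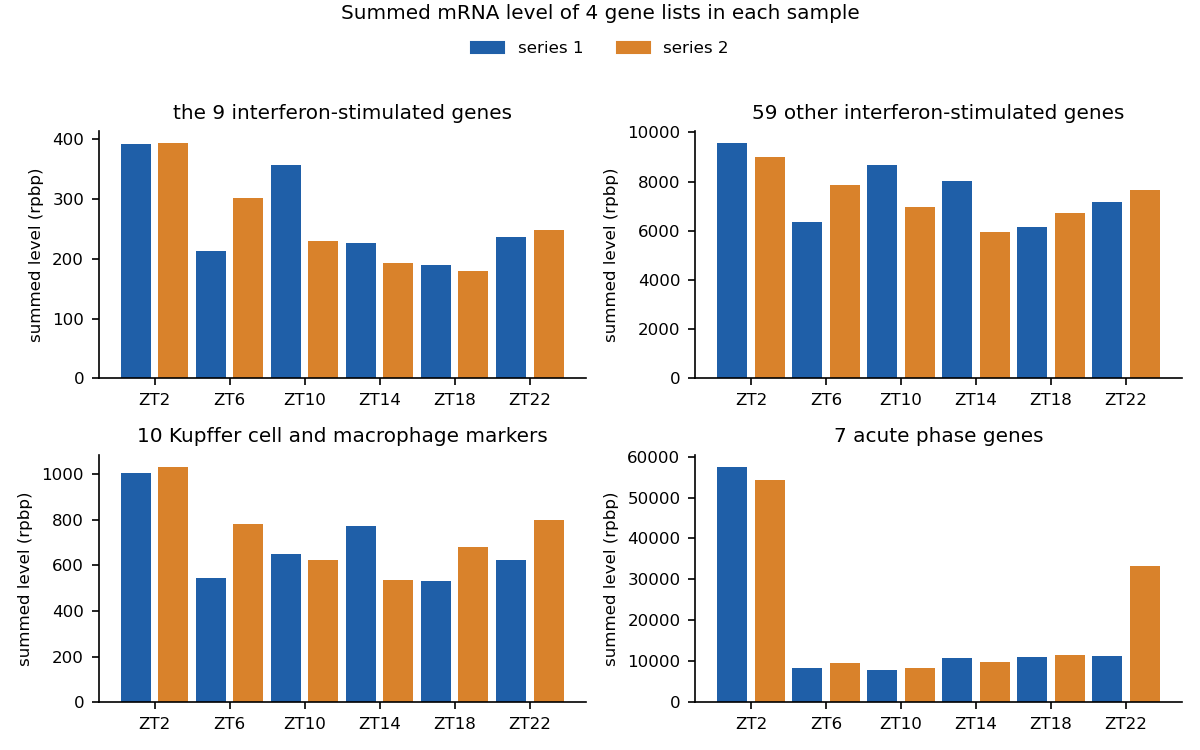
Summed level (rpbp, linear axis from 0) of the matched genes of 4 lists in each of the 12 samples, by time point, with series 1 left and series 2 right in each pair. The members and the macrophage markers are highest at ZT2, and ZT10 of series 1 is high in the members (357 rpbp) and low in the acute phase genes (7953 rpbp).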

How the data were processed

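Poly(A) RNA-Seq of 12 mouse liver samples was used. The authors mapped the sequences to mm9 with TopHat and kept those mapped uniquely. The deposited signal is base coverage summed over a gene's flattened exons, without regard to strand, per exon base, scaled by uniquely mapped sequences, and was multiplied by 4 here to reach the study's scale. It is a mean coverage and not a number of reads, so no counting interval was given. The columns named ZT20 were read as ZT22, as in the labels. The authors' F24 score (a fraction), phase and p-value, 3 deposited columns, were not used.

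The members and lists were chosen with earlier results of these data known. F24 and its permutation p (10000 orders, seed 1) were computed in Python 3.11.15 with numpy 2.4.6. Limma 3.58.1 in R 4.3.3, with a mean-variance trend and without a series term, tested log2(rpbp + 1) in genes above 8 rpbp in at least 1 sample. Its Benjamini-Hochberg adjustment ran over all 10198 genes. Fits with a series term gave the differences between series. Nothing in the labels says that the samples of a time point are single animals, so p-values measure the spread between samples. Genes outside the set were named by rank of r to the members' mean, or, from the lists, as the called genes with the widest change, at most 6 per list. The scripts were tested on simulated data. Alternatives were other scaling, minimums, pseudocounts and F24 on log2(rpbp + 1). Further ones were adjusted and limma rhythm calls, each series alone, a series block and leaving out samples or time points. Places came from GENCODE vM1, and shared 50-base stretches from its coding transcripts. The values of 1 gene of the signalling list are not reported here.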

Additional observations from a re-analysis of the deposited data

How the results depend on the processing

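The 8 tested members hold 5 rhythm calls and 4 time point calls. Rhythm calls numbered 2 without ZT2, 1 without the 3 samples with the highest acute phase signal (both chosen after seeing the data), 0 with adjusted permutation p, 2 with the limma wave, 0 in series 1 alone, 1 in series 2 alone, and 2 to 7 when 1 sample was left out. Calls over all genes were 1948, and 1288, 491, 875, 286 and 369 under the second to sixth of these settings. Time point calls numbered 2 without ZT2, 1 without the 3 samples and 3 to 6 with 1 sample left out, when the lone sample of a time point is assumed to vary like the others. Over all genes they were 2076, 627 without ZT2, 294 without the 3 samples and 928 to 2023 with 1 sample left out (lowest without ZT2 of series 1). For the other interferon-stimulated genes 22 rhythm calls became 8 without ZT2, 9 without the 3 samples, 4 with adjusted p, 7 with the limma wave, 1 and 12 in series 1 and 2 alone, and 11 to 29 with 1 sample left out. Their 18 time point calls became 8 with no minimum, 1 without ZT2, 0 without the 3 samples, and 2 to 20 with 1 sample left out. Median shares moved for time point to 67.4% without the 3 samples and 62.7% without ZT2 (68.7% to 92.7% with 1 sample left out), for series to 0.217% to 3.73% with 1 left out, and for the remainder to 34.1% without ZT2 (4.18% to 25.3%). The median r of 0.82 was 0.77 as Spearman rho, 0.69 without the 2 samples farthest from the median, which are those of ZT2, and 0.77 to 0.84 with 1 sample left out. With 1 sample left out, the pair difference of its time point drops out of the remainder by construction. Causes beyond this were not tested. Other scaling, minimums and pseudocounts changed no count of members by over 1.5 times. The series and interaction tests called 0 members in every setting in which they were run. Neither was run without the 3 samples, and the interaction test was not run without ZT2.

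The series number does not pair samples. Differences between series correlated across genes at -0.153 to 0.206 between 2 time points, above 0.1 in 2 of 15 cases. With the replicate block, 5 members were rhythmic and 4 were called across time points, as without it, while the time point calls of the other interferon-stimulated genes fell to 10 (20.8%, against 16.7% of all genes) and their rhythm calls were 23.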
